A study of Homo sapiens with 3 samples.

Results

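The G2 and mitosis genes are 48 genes whose products carry a cell through G2 and mitosis. They were chosen by name from a fixed list, and all 48 were found among the 36601 genes of the matrix. The cells were NCI-H226, a human mesothelioma line without NF2, a Hippo pathway tumour suppressor, and CL3, a single clone of it made resistant to the TEAD inhibitor GNE7883 by raising the dose from 0.25 µM up to 3 µM, each step adding between 0.1 and 0.5 µM. Cells of both kinds, given GNE7883 or DMSO, were tagged with hashtag antibodies, mixed and run as 1 pool with the Multiome assay, which reads RNA and open chromatin from the same droplet. No file used here ties a droplet to a hashtag, so all cells form 1 sample, line and treatment could not be compared, and no p-value was computed.

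Passage through mitosis runs on the kinase CDK1 and its cyclin partners, which drive chromosome condensation, spindle assembly and nuclear envelope breakdown. The spindle checkpoint then holds the anaphase-promoting complex (APC/C) back until every kinetochore is attached, after which the APC/C destroys securin and the mitotic cyclins and the cell divides. Many of these genes are repressed in resting cells by the DREAM complex and activated in G2 by MYBL2 with the MuvB core and by FOXM1. DREAM and MuvB bind a promoter element called the CHR (cell cycle genes homology region), and the factor NF-Y binds CCAAT boxes close by.

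The matrix was cut to 8913 barcodes with at least 1000 UMIs (unique molecular identifiers, 1 per RNA molecule counted), at least 1000 counts in chromatin peaks and at most 20% mitochondrial UMIs, and each of them carried both readouts. Median depth per cell was 1524 UMIs, ranging from 1000 to 13064, and 4034 peak counts, with 13.9% mitochondrial UMIs. The 13 mesothelial markers summed to 9892 CPM (UMIs per 1000000 UMIs) and the 10 immune markers to 9.10 CPM, with 3 of the latter at 0 UMIs. The 6 endothelial markers summed to 19.8 CPM and the 6 fibroblast markers to 118 CPM. RNA outside cells was read from 26555 droplets of 100 to 400 UMIs with under 100 peak counts.

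The promoter windows of these genes carried the CHR and CCAAT letters more often than promoters at large. RefSeq windows of 300 bases (250 before and 50 after the start, build GRCh38.p14) were matched by symbol for 41 of the 48 genes. In 36 of the 41 the RefSeq start lay inside a chromatin peak assigned to the gene. In the others, LBR, RANGAP1, TACC3, CKAP2 and GAS2L3, it lay outside, and none of their windows held a CHR. The CHR was searched as TTTGAA or TTCGAA, the CCAAT box as CCAAT and the E2F site as TTTGGCGC or TTTCGCGC, each on both strands. None of these letter strings contains another, although neighbouring matches may overlap. A CHR was present in 28 of 41 windows (68.3%), against 16.6% of all 27305 windows and 11.0% of the 6701 windows of genes whose expression was compared here. A CCAAT box was present in 28 of 41 (68.3%), against 35.7% of all windows. Both motifs occurred together in 23 of 41 (56.1%), against 6.58% of all windows, and 21 of 41 (51.2%) held at least 2 CCAAT boxes, against 11.3%. The E2F letters were present in 2 windows, those of CDK1 and NUSAP1 (4.88%, against 1.18%). A match is a description of letters, and binding was not measured.

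Windows of 6 genes are shown, cut to 280 bases so that they end 30 bases into the transcript, with CHR and CCAAT letters (either strand, so also TTCAAA and ATTGG) in capitals. CKAP2L and CENPF had the largest expression ratios between the mitosis class and anchor-free cells, both described below. CDK1 and CCNB2 form the mitotic kinase, TOP2A was the most abundant of the genes, and CDC20 led the order of late over early anchors. TOP2A and CDC20 were added after their values were seen. RANGAP1 and LBR, with the smallest ratios, are left out because their RefSeq starts lay outside the chromatin peaks. The windows are CKAP2L at chr2:112764580-112764859 on the minus strand, CENPF at chr1:214602945-214603224 on the plus strand, CDK1 at chr10:60778081-60778360 on the plus strand, CCNB2 at chr15:59104896-59105175 on the plus strand, TOP2A at chr17:40417867-40418146 on the minus strand and CDC20 at chr1:43358731-43359010 on the plus strand. Each spans the region upstream of the gene and the first bases of its first exon. The 5' to 3' sequences on the strand of the gene are these.
CKAP2L: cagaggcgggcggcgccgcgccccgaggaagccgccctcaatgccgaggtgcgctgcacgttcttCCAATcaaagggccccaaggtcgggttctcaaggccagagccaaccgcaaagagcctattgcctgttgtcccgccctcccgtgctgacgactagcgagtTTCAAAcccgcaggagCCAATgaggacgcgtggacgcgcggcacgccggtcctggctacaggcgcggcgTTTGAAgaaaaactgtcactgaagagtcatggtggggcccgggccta
CENPF: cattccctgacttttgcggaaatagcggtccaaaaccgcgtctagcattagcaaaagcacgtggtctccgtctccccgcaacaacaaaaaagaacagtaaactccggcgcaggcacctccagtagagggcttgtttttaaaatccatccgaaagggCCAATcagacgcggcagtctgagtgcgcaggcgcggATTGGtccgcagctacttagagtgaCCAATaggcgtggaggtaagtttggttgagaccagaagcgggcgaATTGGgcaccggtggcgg
CDK1: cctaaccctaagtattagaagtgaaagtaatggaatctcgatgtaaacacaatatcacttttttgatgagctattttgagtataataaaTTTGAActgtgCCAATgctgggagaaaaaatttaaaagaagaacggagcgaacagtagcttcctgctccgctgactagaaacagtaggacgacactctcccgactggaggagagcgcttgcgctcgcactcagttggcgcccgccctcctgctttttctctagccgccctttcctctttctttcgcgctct
CCNB2: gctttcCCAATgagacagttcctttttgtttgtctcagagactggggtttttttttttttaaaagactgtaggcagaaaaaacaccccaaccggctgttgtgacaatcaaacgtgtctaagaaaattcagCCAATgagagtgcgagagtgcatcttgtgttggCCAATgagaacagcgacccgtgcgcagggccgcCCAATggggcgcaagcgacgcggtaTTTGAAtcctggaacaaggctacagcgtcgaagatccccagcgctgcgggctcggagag
TOP2A: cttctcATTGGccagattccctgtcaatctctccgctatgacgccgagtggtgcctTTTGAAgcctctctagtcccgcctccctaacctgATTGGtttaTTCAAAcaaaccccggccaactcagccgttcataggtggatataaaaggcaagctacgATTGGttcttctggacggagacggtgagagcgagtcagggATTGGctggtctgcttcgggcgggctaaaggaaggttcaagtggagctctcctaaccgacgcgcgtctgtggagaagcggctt
CDC20: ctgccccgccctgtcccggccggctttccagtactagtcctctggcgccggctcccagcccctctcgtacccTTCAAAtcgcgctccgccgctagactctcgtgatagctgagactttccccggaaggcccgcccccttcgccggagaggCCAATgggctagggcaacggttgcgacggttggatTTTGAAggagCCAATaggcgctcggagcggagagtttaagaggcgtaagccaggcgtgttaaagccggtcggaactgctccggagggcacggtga

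The full windows of CCNB2 and CENPF each held 4 CCAAT boxes and 1 CHR, and the CHR of CENPF lies past the bases shown. TOP2A held 4 CCAAT boxes and 2 CHR matches. CKAP2L and CDC20 held 2 of each, and CDK1 had 1 of each.

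Together the 48 genes gave 51534 UMIs, or 3107 CPM (exact Poisson 95% interval 3080 to 3134). This and all later intervals cover counting error in 1 pool only. Free RNA held them at 2959 CPM, nearly the level in cells, so a single UMI in a cell may come from free RNA. CPM counts mitochondrial UMIs in its total, and these were 2.56% of free RNA against a median of 13.9% in cells. Ratios of cells to free RNA are therefore lower than they would be without mitochondrial genes, where cells stood at 3613 CPM. After each cell was thinned to 1000 UMIs, 14.1% of cells had no UMI of any of the genes, 63.6% had 1 to 4, 19.2% had 5 to 9 and 3.12% (278 cells) had 10 or more. The 10% of cells with the most held 30.6% of all their UMIs, and the highest cell had 24 per 1000. The level was 4219 CPM in cells with mitosis genes outside the list and 1373 CPM in cells with none, as set out further on.

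**Figure D1:**
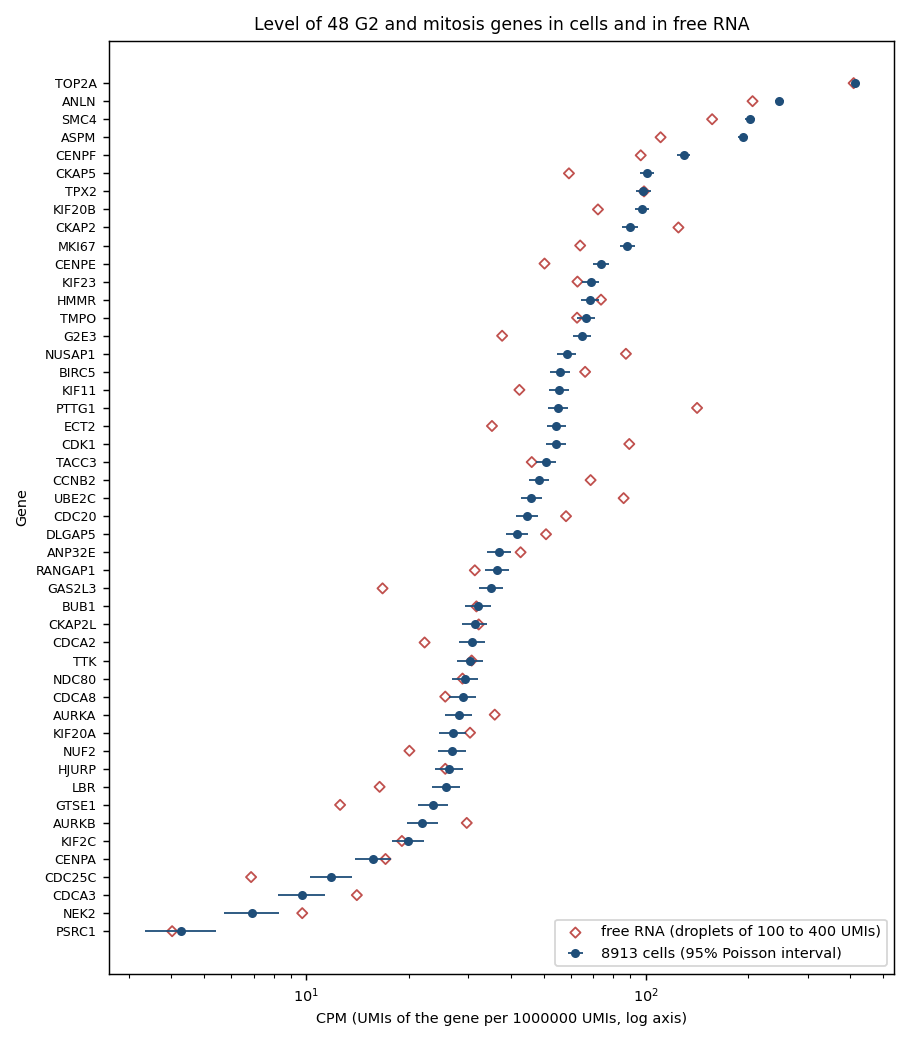
Level of each of the 48 genes in CPM on a log axis, in 8913 cells (filled points with exact Poisson 95% intervals) and in free RNA (open diamonds). TOP2A stands highest in both at 413 and 409 CPM, and PTTG1 lies furthest to the free RNA side at 55.1 against 141 CPM.

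Among the genes acting on chromosomes and the nuclear envelope, TOP2A, the topoisomerase that untangles sister chromatids, stood highest at 413 CPM (404 to 423). SMC4, a condensin subunit, followed at 203 CPM, and MKI67, which coats mitotic chromosomes and encodes the Ki-67 proliferation marker, stood at 88.1 CPM. RANGAP1, the GTPase activator for RAN, stood at 36.5 CPM, CDCA2, which brings a phosphatase to chromosomes, at 30.8 CPM and LBR, the lamin B receptor, lowest at 25.8 CPM. Cytokinesis genes ran from ANLN (anillin, an actin binder of the cleavage furrow) at 247 CPM and KIF23, a central spindle kinesin, at 68.8 CPM to ECT2, the RHOA activator of the furrow, at 54.5 CPM and KIF20A at 26.9 CPM. Spindle genes were led by ASPM, a spindle pole protein, at 194 CPM and CKAP5, a microtubule polymerase, at 101 CPM. At the low end KIF2C, a microtubule-depolymerising kinesin, had 19.9 CPM and PSRC1 had 4.28 CPM.

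Of the centromere and kinetochore genes, CENPF stood at 129 CPM and the kinetochore motor CENPE at 73.8 CPM, whereas CENPA, the centromeric histone H3 variant, had 15.7 CPM and its chaperone HJURP 26.3 CPM. Cyclin B2 (CCNB2) stood at 48.4 CPM and CDK1 at 54.3 CPM. G2E3 was the highest of the mitotic entry group at 64.9 CPM, and CDC25C, the phosphatase that activates CDK1, and CDCA3 had 11.8 and 9.71 CPM. In the checkpoint and APC/C group, securin (PTTG1) stood at 55.1 CPM, the ubiquitin-conjugating enzyme UBE2C at 45.9 CPM, the APC/C activator CDC20 at 44.7 CPM, the checkpoint kinase BUB1 at 32.0 CPM and the checkpoint kinase TTK at 30.3 CPM. BIRC5 (survivin), of the chromosomal passenger complex, had 55.8 CPM and CDCA8 (borealin) 28.8 CPM. The kinase of that complex, AURKB, stood at 21.9 CPM and the centrosomal kinase NEK2 at 6.93 CPM.

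Long genes tended to stand higher, with Spearman's rho of 0.51 and Pearson's r of 0.47 between log CPM and log gene span over the 48 genes, all read from the same libraries. Divided by gene span, TOP2A still led at 14.1 CPM per kb, but UBE2C (10.7 CPM per kb) and CDC20 (10.6 CPM per kb), both short genes, came next, and ASPM stood at 3.10 CPM per kb. Gene span also moved with the balance between cells and free RNA (rho 0.68, r 0.67, n = 48). PTTG1 (2.57-fold), UBE2C (1.87-fold) and CDK1 (1.64-fold), all short genes, were higher in free RNA by at least 1.5-fold, and 8 of the 48 were higher in cells by as much, GAS2L3 the most (2.09-fold, 1.69 to 2.61). Of the 44 genes with at least 200 UMIs, 7 were higher in cells and 3 in free RNA, where 46.6% of all 8305 genes with as many UMIs were higher in cells and 12.9% in free RNA. The median log2 ratio of cells to free RNA was 0.052 for the 44 genes and 0.49 for all.

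To place the genes in the cycle, cells were classed by marker genes outside the list, called anchors. There were 40 S phase anchors such as PCNA and the MCM helicase subunits, and mitosis anchors, of which 18 were early (for example CCNA2 and condensin I subunits) and 20 were late (for example PLK1 and CCNB1). In the thinned counts, 2604 cells had at least 2 mitosis anchor UMIs and under 2 of S (mitosis class), 1190 had the reverse (S class), 1521 had at least 2 of each (both class), 1058 had none (anchor-free class) and 2540 lay between. The class names describe anchor UMIs, and cells in G2 were not told apart from cells in mitosis. Differences between classes were sized by the ratio of CPM, with 1.5-fold counted as higher or lower. The 44 genes with at least 200 UMIs were compared. NEK2, CDCA3, PSRC1 and CDC25C fell short of that and are given by level only.

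Summed over the 48 genes, the level ran from 1373 CPM (1324 to 1424) in anchor-free cells to 2007 in intermediate cells, 2515 (2448 to 2583) in the S class, 4219 (4161 to 4278) in the mitosis class and 4712 (4634 to 4790) in the both class. The intervals of these classes did not overlap. Median depth ran the other way between the ends, at 1740 UMIs in anchor-free cells and 1446 in the mitosis class, with 1492 in the S class and 1568 in the both class. Doublets could not be removed, and their part in the both class was not tested. In anchor-free cells 69.3% still held at least 1 UMI of the list per 1000 (66.4 to 72.0), against 92.3% (91.2 to 93.3) in the mitosis class. Unthinned, those shares were 86.3% and 96.2%. The anchor-free level lay below that of free RNA in CPM, and how much of it was background was not tested.

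Between mitosis-class and anchor-free cells, 42 of the 44 genes were higher by at least 1.5-fold and none was lower, where 6.21% of 8305 compared genes were higher and 1.73% lower. The median log2 ratio was 1.69, against 0.04 over all compared genes. For 42 of the 44 the 95% interval of the ratio lay above 1, a count given without its share over all compared genes. The largest difference was that of CKAP2L, which binds spindle microtubules, at 8.04 CPM in anchor-free cells, 21.7 in the S class, 46.8 in the both class and 49.5 in the mitosis class (6.16-fold between the ends, 3.76 to 10.8). CENPF ran from 32.2 to 85.7, 214 and 192 CPM in the same order (5.96-fold, 4.65 to 7.74). NUF2 (4.91-fold) of the NDC80 complex, GTSE1 (4.82-fold), TOP2A (4.39-fold, 3.89 to 4.97) and HJURP (4.32-fold) came next. TOP2A stood at 138 CPM in anchor-free cells, 305 in the S class, 658 in the both class and 607 in the mitosis class, above anchor-free cells in each.

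The smallest ratios were those of RANGAP1 and LBR. RANGAP1 had 26.5 CPM in anchor-free and 35.3 CPM in mitosis-class cells (1.33-fold, 0.978 to 1.84), and LBR had 20.8 and 29.1 CPM (1.40-fold, 0.989 to 2.01), so their intervals spanned 1. ANP32E, a histone chaperone, was 1.60-fold higher (1.19 to 2.18), CCNB2 1.74-fold (1.35 to 2.27), G2E3 1.91-fold and PTTG1 1.94-fold. CDC20 was 1.99-fold higher (1.51 to 2.66), at 29.8 and 59.3 CPM. MKI67 (4.04-fold, 3.08 to 5.38), AURKB (3.86-fold, 2.26 to 7.10) and CDK1 (2.99-fold, 2.22 to 4.11) lay between. By role, the median log2 ratio was highest for centromere and kinetochore genes (2.06, 6 of 6 higher) and lower for the checkpoint and APC/C group (1.20, 5 of 5 higher) and the chromosome and envelope group (1.22, 6 of 8 higher). Spindle genes had a median of 1.70 (13 of 13 higher), the Aurora group 1.69 (4 of 4), cytokinesis genes 1.58 (4 of 4) and mitotic entry genes 1.26 (4 of 4).

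**Figure D2:**
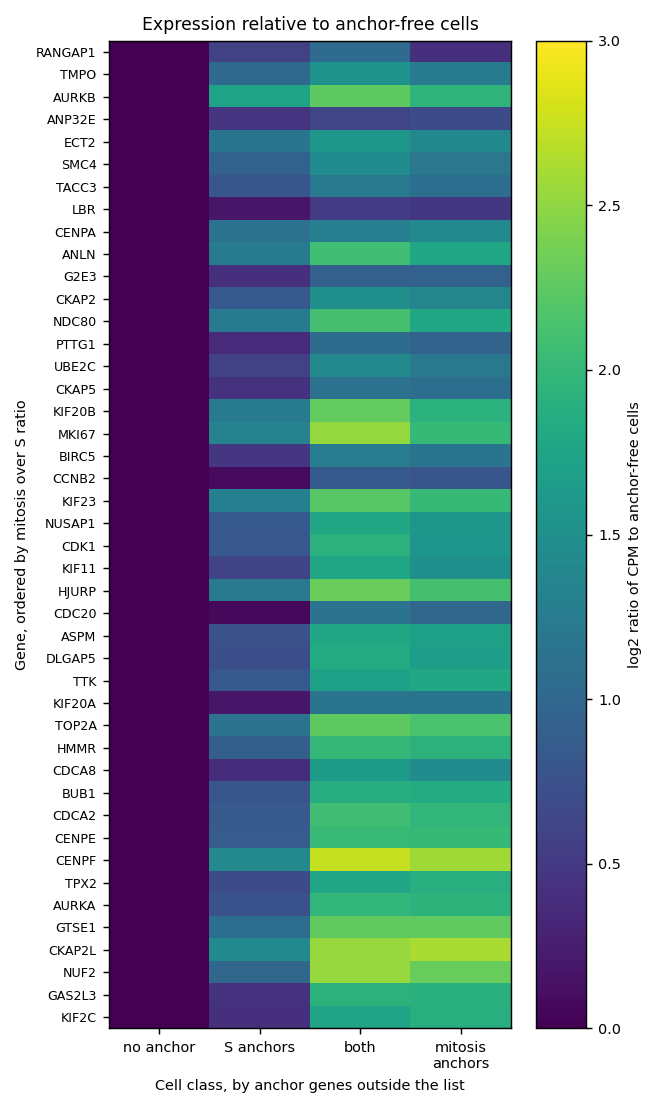
Expression of the 44 compared genes (rows, ordered from lowest to highest ratio of mitosis to S class) in 4 classes of cells, as log2 ratio of CPM to anchor-free cells. The both class was the highest for 35 genes and the mitosis class for 9, CKAP2L and KIF2C among them.

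The S class came between, with 31 of the 44 genes at least 1.5-fold above anchor-free cells and none lower, where 6.48% of all compared genes were higher and 2.3% lower. AURKB (3.32-fold, 1.83 to 6.36), CKAP2L (2.69-fold), CENPF (2.67-fold) and MKI67 (2.51-fold) were already high in S-class cells. CDC20 was not (31.1 against 29.8 CPM, 1.04-fold, 0.727 to 1.497), nor were CCNB2 (1.06-fold, 0.766 to 1.47), LBR (1.13-fold) and KIF20A (1.13-fold, 0.707 to 1.83), whose intervals all spanned 1. The highest class was the both class for 35 genes and the mitosis class for 9, among them KIF2C, TPX2, CKAP2L, GTSE1, TTK and KIF20A.

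The first ordering set the mitosis class against the S class. Of the 44 genes, 30 were at least 1.5-fold higher in the mitosis class and 0 were lower, where 1.94% of all compared genes were higher and 1.16% lower. The median log2 ratio was 0.76, against 0.0031 over all compared genes. KIF2C was the most shifted to mitosis at 11.3 CPM in the S class and 31.4 in the mitosis class (2.78-fold, 1.80 to 4.48). GAS2L3, which links actin and microtubules, followed at 19.3 and 53.1 CPM (2.75-fold, 1.97 to 3.93), then NUF2 (2.47-fold), CKAP2L (2.29-fold), GTSE1 (2.27-fold) and the mitotic kinase AURKA (2.27-fold, 1.60 to 3.29). At the other end the 2 classes were close. RANGAP1 was the only gene with a lower value in the mitosis class (40.0 and 35.3 CPM, 0.881-fold, 0.674 to 1.16). TMPO, a lamina-associated protein (1.16-fold, 0.958 to 1.42), AURKB (1.16-fold, 0.834 to 1.65), ANP32E (1.17-fold), ECT2 (1.18-fold) and SMC4 (1.19-fold, 1.07 to 1.33) completed the low end. Between these ends lay TOP2A (1.99-fold, 1.83 to 2.17), CDC20 (1.91-fold), CDK1 (1.71-fold, 1.35 to 2.18) and MKI67 (1.61-fold, 1.34 to 1.94). The intervals of the kinases AURKA (1.60 to 3.29) and AURKB (0.834 to 1.65) overlapped narrowly, and the difference between them was not tested. With the anchors counted unthinned, 17 of 44 genes passed 1.5-fold, where 2.29% of all compared genes did. With at most 10% mitochondrial UMIs only 11 genes had enough UMIs and 6 passed, where 2.09% of all did.

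The second ordering asked which genes go with late rather than early mitosis anchors. It set 1805 cells with at least 1 late and no early anchor UMI against 2144 with the reverse, and differences were small. The genes of the list summed to 2896 CPM (2838 to 2955) in the late-anchor cells and 2609 CPM (2558 to 2660) in the early-anchor cells. Both levels lay below the 3107 CPM of all cells and the 4219 CPM of the mitosis class. This ordering thus describes cells with less RNA of these genes than the pool as a whole. The early anchors summed to 935.5 CPM in cells and 576.6 in free RNA, and the late anchors to 868.4 and 961.8. A single anchor UMI may come from free RNA, and its part in this ordering was not tested. CDC20 and KIF20A passed 1.5-fold upward and no gene passed downward, where 0.71% of all compared genes were higher and 1.3% lower. CDC20 had 47.4 CPM in late-anchor cells and 29.2 in early-anchor cells (1.62-fold, 1.27 to 2.09). KIF20A had 29.3 and 18.6 CPM (1.57-fold, 1.15 to 2.17). Next were KIF2C (1.47-fold, 1.02 to 2.12), AURKA (1.46-fold, 1.07 to 1.99), CENPE (1.39-fold) and CCNB2 (1.37-fold, 1.08 to 1.74). The lowest values were those of KIF11 (0.813-fold, 0.650 to 1.01), the kinesin that separates the spindle poles, then CDCA2 (0.906-fold), NUF2 (0.919-fold), AURKB (0.923-fold), SMC4 (0.926-fold) and KIF20B (0.936-fold, 0.795 to 1.10). CDK1 (1.01-fold, 0.810 to 1.25) and MKI67 (1.08-fold, 0.904 to 1.30) were near even, and TOP2A was 1.18-fold higher in late-anchor cells (1.09 to 1.27). For 12 of the 44 genes the interval lay above 1, and for none below it. The share of all compared genes with such intervals is not given here, so these counts have no background. The order among neighbours was not resolved at this depth, and without the 10% of cells with the most UMIs KIF20A stood at log2 0.37, under 1.5-fold. When at least 2 anchor UMIs of one kind were required, 12 genes passed upward, led by KIF20A (log2 1.42), CCNB2 (1.38) and CDC20 (1.30), and AURKB passed downward (-0.82), where 4.13% of all compared genes passed upward and 6.96% downward under the same requirement.

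**Figure D3:**
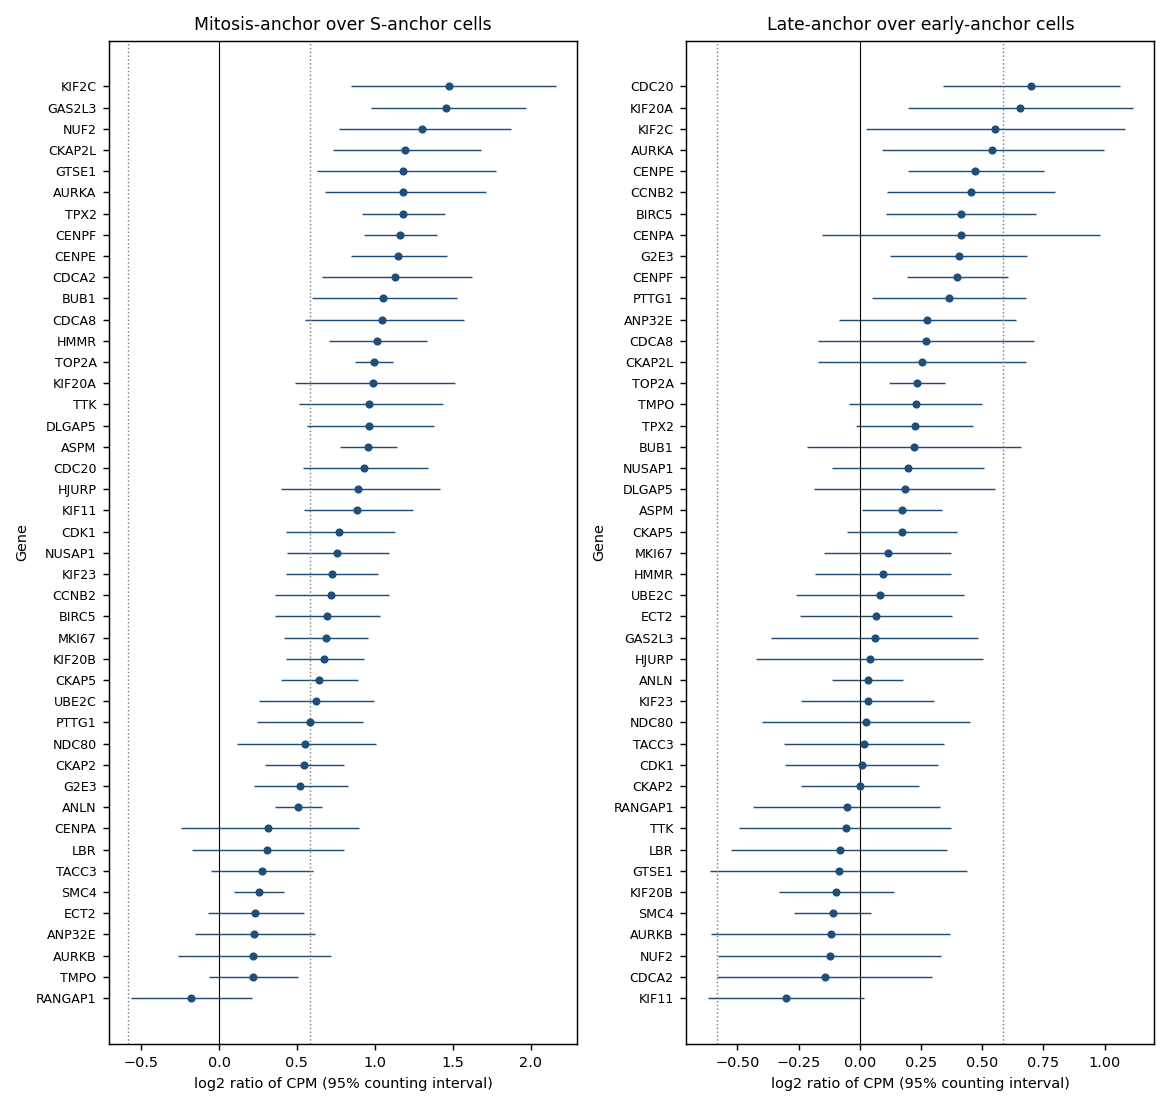
Both orderings of the 44 genes, as log2 ratio of CPM with exact 95% counting intervals, mitosis class over S class on the left and late over early anchors on the right, with 1.5-fold dotted. KIF2C leads on the left at 1.48 and CDC20 on the right at 0.70, while KIF11, at 0.89 on the left, stands last on the right at -0.30.

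Set side by side, 2 genes passed 1.5-fold in both orderings, a count given without its share over all compared genes. CDC20 stood at 1.91-fold over the S class and 1.62-fold late over early, and KIF20A at 1.98-fold and 1.57-fold. Late over early, KIF20A fell under 1.5-fold without the deepest cells and with unthinned anchors. KIF2C (2.78-fold and 1.47-fold) and AURKA (2.27-fold and 1.46-fold) passed in the first ordering and were below 1.5-fold in the second. The 2 orderings share cells.

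Every one of the 48 genes had at least 1 chromatin peak within 2 kb of the interval that the deposited matrix lists for it, 75 peaks in all, and these are called its promoter peaks here. For RANGAP1 and GAS2L3 the RefSeq start lay 13399 and 16299 bases from the nearest of these peaks. Their values describe peaks at the listed interval, away from that RefSeq start. The promoter peaks of all 48 genes held enough counts to compare, with at least 200 cut events each (2 peak counts in a cell taken as 1 event). Events per promoter ran from 313 for NEK2 to 2514 for CDCA3, with a median of 715, close to the 690 of all compared promoters. Peaks of 22 genes also lay near another gene, so their events cannot be assigned to 1 gene. Level and openness showed no clear relation across the 48 genes (rho 0.047, r 0.020).

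Promoter openness differed far less between classes than expression did. Summed over the 75 peaks, events per 1000000 were 1530 in anchor-free cells, 1534 in the S class and 1591 in the mitosis class, which is 1.04-fold (1.007 to 1.075) between the first and last. None of 48 promoters was 1.5-fold higher in mitosis-class cells and 1 was lower, where 0.877% of 17208 compared promoters were higher and 0.529% lower. Over the 44 genes compared in both readouts, the median log2 promoter ratio was 0.062, against 0.0081 over all promoters, and 27 of 44 were above 0. The promoter of CKAP2L was the most raised, at 22.1 events per 1000000 in anchor-free and 32.1 in mitosis-class cells (1.45-fold, log2 0.54 with interval 0.16 to 0.93). HJURP (log2 0.40), KIF20A (0.39), GTSE1 (0.38) and TOP2A (0.34, 0.012 to 0.68) came next, then BUB1 (0.27). CENPF was the gene that passed downward, with 23.9 events per 1000000 in anchor-free and 15.7 in mitosis-class cells (1.52-fold lower, log2 -0.60 with interval -1.03 to -0.18), while its expression was 5.96-fold higher. It was below 1.5-fold, though still lower, with thresholds of 1 (log2 -0.52) and 3 anchor UMIs (-0.49) and with a minimum of 2000 UMIs and peak counts (-0.40). Its 7 peaks include internal ones. The peak at its annotated start (chr1:214602689-214603584) alone was 1.43-fold lower (1.01 to 2.02), from 84 and 61 events. NUSAP1 (-0.32), NDC80 (-0.29), CDK1 (-0.26, -0.60 to 0.086), DLGAP5 (-0.21) and KIF11 (-0.18) completed the low end, with intervals that spanned 0. MKI67 (-0.035), CDC20 (-0.13) and AURKB (0.11) were near even.

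Across the 44 genes, the expression ratio and promoter ratio showed no clear relation (r -0.039, rho 0.035, both from the same cells). Cells with at least 1 UMI of a gene were also set against the other cells. Free RNA droplets held a median of 217 UMIs, against 1524 in cells, with these genes at nearly the same CPM. What share of a cell's UMIs came from free RNA was not measured, so the split may mix expressing and other cells. The values are a description only. For the promoter of the same gene, the median log2 ratio of events was 0.036, against 0.025 over 8004 genes. Of the 44 genes only GTSE1 was 1.5-fold higher (log2 0.65, 0.013 to 1.23) and only NUF2 lower (-0.62, -1.26 to -0.047), where 0.95% of genes were higher and 1.59% lower. CDC20 was at 0.40 (0.081 to 0.71), CDK1 at 0.098 and MKI67 at -0.20, the last 2 with intervals that spanned 0. Intervals of single promoters were wide at this depth, so small changes in one promoter were not detectable.

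**Figure D4:**
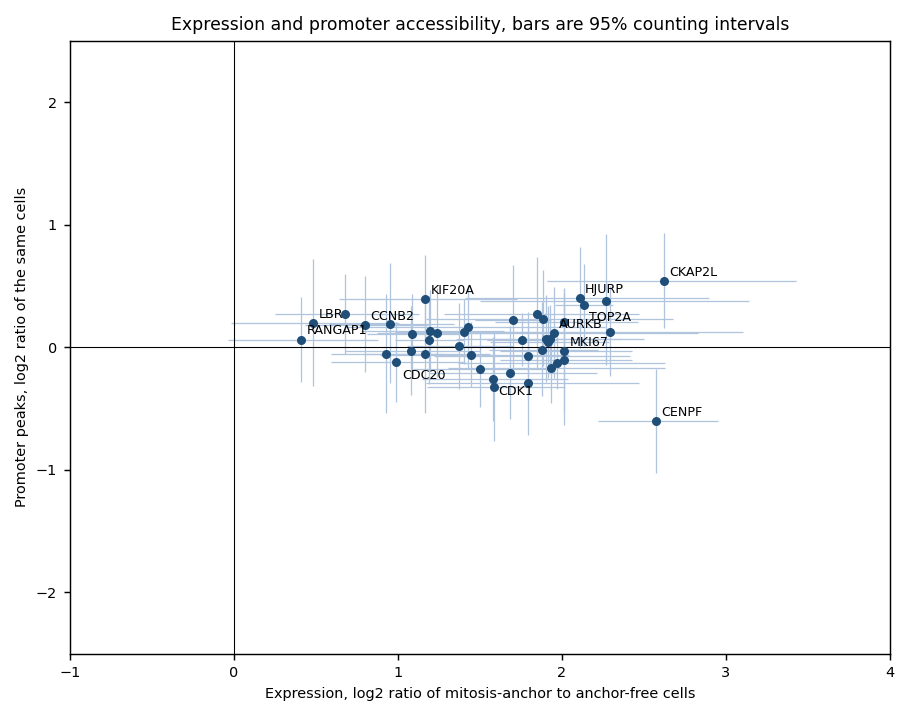
Log2 ratio of mitosis-class to anchor-free cells for expression (horizontal) and promoter events (vertical), 1 point per gene with exact 95% counting intervals, for 44 genes. Expression ratios spread from 0.41 for RANGAP1 to 2.62 for CKAP2L while promoter ratios stay between -0.60 (CENPF) and 0.54 (CKAP2L).

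Chromatin alone, with the peaks near these genes and the anchors left out, gave 6 clusters, each over 100 cells in size. They are not read as lines or treatments. Cluster 1 held 4367 cells and 3418 CPM of the 48 genes (3376 to 3460), cluster 2 held 1868 cells and 2178 CPM (2128 to 2228), cluster 3 held 1489 and 3163 CPM, cluster 4 held 747 and 3175 CPM, cluster 5 held 329 and 3784 CPM (3655 to 3917) and cluster 6 held 113 and 2789 CPM. The highest RNA ratios to other cells belonged to IL1RAPL1 in cluster 1, CYP17A1 in cluster 2, SYT17 in cluster 3, PPP2R2B in cluster 4, IGFBP5 in cluster 5 and PIP5K1C in cluster 6. In cluster 2, 26 of 44 genes were at least 1.5-fold lower than in all other cells and none was higher, where 4.71% of all compared genes were lower and 1.9% higher. All 44 had a value below the other cells (median log2 -0.61), a count given without its share over all compared genes. At resolution 0.3, 10 genes were lower in the lowest cluster, a set of 101 cells, where 18.4% of all compared genes were. Without the deepest 10% of cells 3 were lower, where 9.81% of all were, and with at most 10% mitochondrial UMIs only 1 cluster formed.

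Cluster 2 also differed in its anchors, with 17.8% anchor-free and 25.2% in the mitosis class, against 8.88% and 30.5% in cluster 1. Its S anchors summed to 868 CPM against 1132 to 1452 CPM in the other clusters. Within the mitosis class cluster 2 held 3183 CPM (3061 to 3310), against 4324 CPM (4238 to 4411) in cluster 1 and 4510 in cluster 3. Cluster 6 was as low there, at 3195 CPM (2764 to 3675) from 40 cells. Within the S class cluster 2 held 1979 CPM (1840 to 2127). Its interval overlapped those of cluster 5 (2104, 1824 to 2414) and cluster 6 (2609, 2075 to 3239). Within the both class the values were 4047 (3844 to 4258) and 4549 CPM (4443 to 4657) in clusters 2 and 1. Cluster 6 overlapped cluster 2 there (4657, 3852 to 5582). Within the anchor-free class they were 1024 (949 to 1103) and 1824 CPM (1724 to 1927) in clusters 2 and 1. Cluster 6 again overlapped cluster 2 (1293, 779 to 2020), from 6 cells. Median depth was 1489 UMIs in cluster 2 and 1439 in cluster 1. It was 1783 in cluster 3, 1790 in cluster 4, 2270 in cluster 5 and 1407 in cluster 6. Depth was thus not matched across clusters, and its part in their levels was not tested.

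In the other clusters few genes differed. No gene passed in cluster 1 (background 1.38% higher, 0.987% lower) although 43 of 44 lay above the other cells. The share of all compared genes above the other cells is not given here. Those other cells include cluster 2, so this count is not independent of the low values there. In cluster 3, LBR alone was higher (35.7 CPM; background 1.66% and 2.87%). Cluster 4 had 0 higher and 2 lower (background 4.23% and 7.81%), cluster 5 had 4 higher and 2 lower (6.56% and 8.73%), and cluster 6 had 1 higher and 10 lower (9.26% and 17.1%), shares near the background in small clusters. RANGAP1 stood at 65.5 CPM (49.5 to 85.1) in cluster 5 from 56 UMIs, and at 25.2 to 40.3 CPM elsewhere. CDC20 went the other way there, at 22.2 CPM (13.4 to 34.7) from 19 UMIs, against 52.4 CPM (47.3 to 57.9) in cluster 1. The 113 cells of cluster 6 gave few UMIs per gene, 1 each for HJURP and KIF2C (5.03 CPM, 0.127 to 28.1), so ranges are given over clusters 1 to 5. There TTK ran from 17.0 CPM (12.8 to 22.0) in cluster 2 to 45.6 CPM (32.5 to 62.4) in cluster 5, BUB1 from 19.6 CPM (15.2 to 25.0) to 46.8 CPM (33.4 to 63.7) and GTSE1 from 17.3 CPM (13.1 to 22.3) to 41.0 CPM (28.5 to 57.0) in the same clusters. TOP2A ran from 289 CPM in cluster 2 to 591 CPM in cluster 5, MKI67 from 61.3 CPM in cluster 2 to 126 CPM in cluster 4, AURKB from 11.6 CPM in cluster 2 to 26.4 CPM in cluster 1, and CDK1 from 39.9 CPM in cluster 2 to 66.7 CPM in cluster 4.

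**Figure D5:**
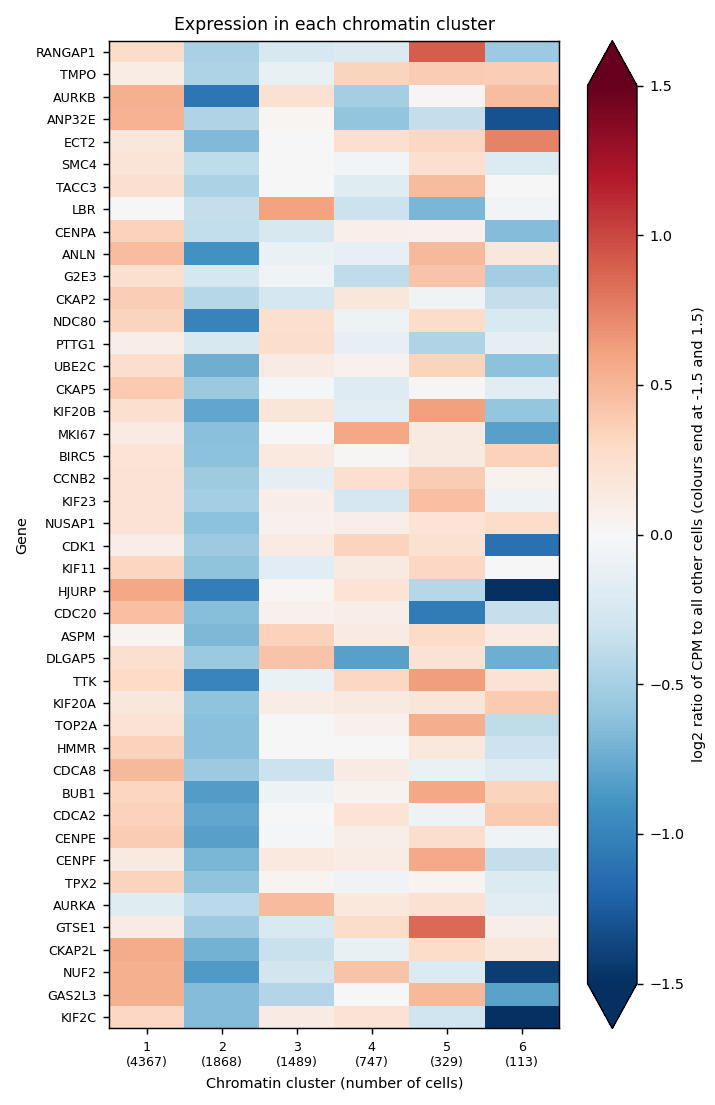
Log2 ratio of CPM in each chromatin cluster to all other cells for the 44 genes (rows, ordered as in the plot of cell classes), with the number of cells under each cluster. Cluster 2 is below 0 for all 44 genes and cluster 1 above 0 for 43, while cluster 6, with 113 cells, rests on few UMIs per gene. Shares of all compared genes below or above 0 are not given here.

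Events in the 75 promoter peaks did not follow these RNA levels. They stood at 1555 per 1000000 in cluster 2 and 1560 in cluster 1 (ratios to other cells 1.001 and 1.006), where the summed RNA ratios were 0.651 (0.635 to 0.668) and 1.20 (1.18 to 1.22). Cluster 4 had the most promoter events (1693 per 1000000, 1.10-fold, 1.07 to 1.14) with an RNA ratio of 1.02, and cluster 6 the fewest (1128 per 1000000, 0.722-fold) with an RNA ratio of 0.897.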

How the data were processed

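Per the file headers, the deposited matrix holds whole-number counts from Cell Ranger ARC 2.0.0, as UMIs per gene and cut counts per peak, for 651860 unfiltered barcodes, 36601 genes and 215590 peaks. Per the submitters' processing notes, Cell Ranger 2.0.0, ArchR 1.0.3, MACS2 and GRCh38.p10 were also used, with roles not given in the sources used here. Of 11130 barcodes past both minimums, 2217 exceeded the mitochondrial limit. Doublets were not removed. Of the peak entries 87.9% were even, hence 2 counts per event.

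The 48 genes and all lists were chosen with earlier results of these data known. UMIs were summed over cells of a class (thinned to 1000 UMIs per cell, seed 0, for class assignment only) and compared as CPM with exact conditional binomial intervals. In simulated data with 200 changed genes among 8305 for the mitosis class over anchor-free cells, 48.0% of 1.5-fold and 98.5% of 2.0-fold changes passed 1.5-fold. Clusters came from 181977 peaks (TF-IDF, 30 components, 15 neighbours, Leiden resolution 0.5; scikit-learn 1.9.0, leidenalg 0.10.2), without 206 peaks near these genes and anchors.

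Named genes were the extremes of each role, ordering, class and cluster comparison, with MKI67, TOP2A, CDK1, CDC20 and AURKB throughout. The planned free RNA range of 10 to 100 UMIs held only 1594 barcodes, so 100 to 400 UMIs was used after seeing the data. S class over anchor-free cells, gene span, class levels within clusters, single-peak values, the motif combinations and ranges over clusters 1 to 5 were also added then. Alternatives varied cell filters, depth, thresholds, scaling, peak window and clustering.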

Additional observations from a re-analysis of the deposited data

How the results depend on the processing

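No paired analysis was possible because the 3 libraries come from 1 pool and no result comes from a test between groups. The summed level of 3107 CPM became 3475 with at most 10% mitochondrial UMIs, 3287 with at least 2000 UMIs and peak counts, 2884 without the 10% of cells with the most UMIs and 3613 without mitochondrial genes. With the planned free RNA range the free RNA level was 2732 CPM.

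The limit of 10% mitochondrial UMIs left 1592 cells and 11 genes with enough UMIs. Of these, 11 were higher in the mitosis class than in anchor-free cells, 6 than in the S class, and 0 passed late over early. Under that limit the summed promoter log2 ratio was -0.019 and the clustering gave 1 cluster, with 0 genes lower and 0 higher. Against anchor-free cells, 36 of 37 genes were higher at a minimum of 2000 UMIs and peak counts, and 40 of 43 without the deepest cells. With unthinned anchors 35 of 44 were higher, with a threshold of 1 anchor UMI 39 and with 3 43. Median-of-ratios scaling gave 42 of 44, and a minimum of 50 UMIs per gene gave 46 of 48. Shares of all compared genes under these settings are not given here. Unthinned anchors gave 17 genes in mitosis over S, and turned BIRC5 against anchor-free cells to log2 -0.14 from 1.17. The cause was not tested.

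Late over early, where 2 genes were higher and 0 lower, the numbers were 5 and 1 at a minimum of 2000 UMIs and peak counts, 1 and 1 without the deepest cells, 1 and 1 unthinned, and 12 and 1 with at least 2 anchor UMIs. Under the last of these, 4.13% of all compared genes were higher and 6.96% lower. Shares under the others are not given here. KIF20A, under 1.5-fold without the deepest cells (log2 0.37) and unthinned (0.45), depended on these settings. For promoters, the 0 higher and 1 lower (CENPF) became 1 and 0 with a threshold of 3 anchor UMIs, and likewise at a minimum of 2000 UMIs and peak counts. Unthinned anchors gave 1 higher, and a threshold of 1 gave 0 lower. With at most 10% mitochondrial UMIs 4 promoters had enough events, CENPF not among them, and CDCA2 was the 1 lower. The 26 genes lower in the lowest cluster became 10 at resolution 0.3, 34 at resolution 1.0, 3 without the deepest cells and 13 where 2000 UMIs and peak counts were required. Of all compared genes, 18.4% were lower at resolution 0.3 and 9.81% without the deepest cells. For resolution 1.0 and the minimum of 2000 that share is not given here. Clusters formed under each setting differ in their cells.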

Other observations

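Genes related to the 48 were described from lists kept apart from them and from the anchors. A list of 30 other genes, named for mitosis, also held genes of other processes such as BRCA2 and POLQ. Of the 30, 22 had enough UMIs and 18 were at least 1.5-fold higher in mitosis-class than in anchor-free cells, where 6.21% of all compared genes were. Their median log2 ratio was 1.65. BRCA2, a homologous recombination gene, led with 4.73 CPM in anchor-free and 37.0 CPM in mitosis-class cells (log2 2.97), followed by ARHGAP11A (2.59), the centriole gene STIL (2.40) and the DNA polymerase POLQ (2.35). SKA2 (0.30) and CTCF (0.31) were lowest. Against the S class 5 of 22 were higher, where 1.94% of all compared genes were. Their median there was 0.31, against 0.76 for the 44 genes. BRCA2 (0.32) and POLQ (0.0099) were near even there.

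Of the 20 genes of the G2 and mitosis transcription machinery, 14 were compared and 5 were higher in mitosis-class than in anchor-free cells (6.21% of all compared genes). E2F7, a repressor of the E2F family, went from 1.89 to 14.7 CPM (log2 2.95), FOXM1 from 21.8 to 53.8 CPM (1.31), RBL1 (p107) from 8.51 to 17.0 CPM (1.00) and MYBL2 from 10.9 to 18.1 CPM (0.73). E2F3 (-0.23) and RBL2 (p130, -0.05) were lowest. E2F7 (-0.82) and MYBL2 (-0.67) were lower in the mitosis class than in the S class, and FOXM1 was higher (0.57), below 1.5-fold.

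Of 11 compared cell-cycle inhibitors, 2 were higher in mitosis-class than in anchor-free cells, CDKN2C (p18, log2 1.30) and RB1 (0.66), and CDKN2B (p15) was lower (-0.72, from 43.0 to 26.1 CPM). Of all compared genes 6.21% were higher and 1.73% lower, and 11 genes are too few to read these counts against those shares. CDKN1A (p21) had 150 CPM in anchor-free and 125 CPM in mitosis-class cells. Among 12 housekeeping genes only TUBA1B, which encodes alpha-tubulin, passed 1.5-fold (log2 0.68), a share near the background.

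Outside the 48 genes and the anchors, the RNA with the largest ratio of mitosis-class to anchor-free cells was AC073529.1, at 9.61-fold (log2 3.27 with interval 2.36 to 4.35) from 480 UMIs. It was also higher than in the S class (log2 1.01). In a ranking of all compared genes by this ratio, anchors included, 25 of the first 100 were among the 48. No function is described here for AC073529.1.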
